A study of Mus musculus with 17 samples.

Results

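The nuclear genes of the mitochondrial respiratory chain and ATP synthase were followed in mouse haematopoietic stem cells, complex by complex. They were taken by symbol. Complex I held the symbols beginning Ndufa, Ndufb, Ndufc, Ndufs or Ndufv, complex II the genes Sdha, Sdhb, Sdhc and Sdhd, and complex III the symbols beginning Uqcr. Complex IV held the symbols beginning Cox4, Cox5, Cox6, Cox7 or Cox8, and complex V those beginning Atp5. Only probe sets annotated to a single gene were used, and each gene was read from its probe set with the highest mean over all arrays. The rule found 90 of the 18194 genes with such a probe set, with 44 in complex I, 4 in complex II, 8 in complex III, 17 in complex IV and 17 in complex V. It also takes in 9 genes that were counted apart from the subunits: 8 complex I assembly factors with the prefix Ndufaf, and Cox7a2l, a factor that joins complexes into supercomplexes. Of the 90 genes, 89 exceeded the lowest deposited intensity on at least 1 array and were tested. Cox7b2 stood at that lowest value on every array.

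The study used 17 single-colour Affymetrix arrays to ask how the transcription factor C/EBPa relates to quiescence of adult stem cells. Fetal stem cells came from E15.5 liver (3 arrays). By title, the adult arrays held C/EBPa KO cells at day 7 after injection of pIpC, an interferon inducer (3 arrays), control cells at day 7 after pIpC (3 arrays), KO cells at day 21 (4 arrays) and control cells at day 21 (4 arrays). KO and control animals alike had received pIpC, and fetal cells are not labelled as injected. All cells were sorted as lineage-negative, Sca1+, cKit+, CD150+ and CD48-, and fetal cells also as Mac-1 low. The labels call the controls wild type and state no genotype for the fetal cells. The genotype entry of the KO arrays, like the series' design note, gives a PU.1 knock-in and no C/EBPa deletion, and the groups below follow the titles. No source used here gives the Cre driver, the floxed allele, the ages of the adult animals or any pooling. Nothing in the labels says that arrays of a group came from separate animals, so p-values measure only the spread between these samples.

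Cebpa, the targeted gene, had log2 intensities of 5.0, 4.96 and 4.37 in KO cells at day 7, against 7.09, 7.14 and 8.30 in control cells. At day 21 it had 4.74, 4.90, 4.64 and 5.32 in KO cells, against 8.10, 6.85, 6.85 and 9.06 in control cells. Every KO array lay below every control array, and the mean difference over both days was -2.78 (SE 0.36, limma adjusted p = 0.0426). Spi1, which encodes PU.1, differed by 0.34 at day 7 and -0.03 at day 21. Median intensity was 39.4 to 53.1 per array, and 20.4% to 25.2% of the 45101 probe sets of an array stood at the lowest value. Cd48, whose protein the sort excludes, had log2 intensities of 5.93 to 8.14 in KO cells at day 7, against 4.0 to 4.23 in control cells. By day 21 Cd48 had 6.5 to 8.27 in KO cells, against 4.21 to 9.36 in control cells, with overlap, and in fetal liver cells 6.64 to 7.71.

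The respiratory chain passes electrons from NADH (complex I) and succinate (complex II) through complexes III and IV to oxygen, and pumps protons across the inner mitochondrial membrane. Complex V, the ATP synthase, uses the returning protons to make ATP. Adult haematopoietic stem cells are known as mostly quiescent and to lean on glycolysis, whereas fetal liver stem cells cycle. Most of the subunits are encoded in the nucleus, and factors such as NRF1, the ETS factor GABP, YY1 and SP1 are known to act on many of their promoters.

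Promoters were searched for these 4 factors. RefSeq promoters of 300 bases on GRCm38.p6, from 250 bases before to 50 after the annotated start, matched 74 of the 90 genes. The letters GCATGCG (NRF1 core) stood on either strand in 12 of the 74 promoters (16.2%), against 5.86% of the 14453 array genes with a promoter. CCGGAAG (ETS core) stood in 19 (25.7% against 15%), AAGATGG (YY1 core) in 11 (14.9% against 7.53%) and GGGCGGG (SP1 box) in 28 (37.8% against 42.9%). In all, 45 of the 74 promoters held at least 1 of the 4. The first 3 sequences below are promoters that hold both the NRF1 and the ETS letters, in genes described further on, 1 each of complexes IV, II and III. The last are those of Ndufab1 and Atp5o, which were called higher in fetal liver cells and hold none of the 4. Capitals mark the matches, on either strand, and adjoining capitals can be overlapping matches of 1 motif.
Cox6a1, chr5:115348909-115349208, minus strand: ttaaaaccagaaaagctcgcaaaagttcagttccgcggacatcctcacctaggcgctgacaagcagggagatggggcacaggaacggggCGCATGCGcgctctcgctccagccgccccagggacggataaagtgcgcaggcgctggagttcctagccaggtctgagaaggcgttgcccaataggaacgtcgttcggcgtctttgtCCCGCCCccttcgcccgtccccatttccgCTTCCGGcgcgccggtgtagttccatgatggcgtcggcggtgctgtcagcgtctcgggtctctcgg
Sdhb, chr4:140961021-140961320, plus strand: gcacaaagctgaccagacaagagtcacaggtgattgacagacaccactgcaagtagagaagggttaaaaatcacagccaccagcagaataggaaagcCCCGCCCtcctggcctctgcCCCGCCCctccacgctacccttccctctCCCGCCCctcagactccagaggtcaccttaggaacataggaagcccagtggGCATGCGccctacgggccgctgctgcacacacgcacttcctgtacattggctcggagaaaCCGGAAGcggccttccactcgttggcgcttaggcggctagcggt
Uqcr11, chr10:80406772-80407071, minus strand: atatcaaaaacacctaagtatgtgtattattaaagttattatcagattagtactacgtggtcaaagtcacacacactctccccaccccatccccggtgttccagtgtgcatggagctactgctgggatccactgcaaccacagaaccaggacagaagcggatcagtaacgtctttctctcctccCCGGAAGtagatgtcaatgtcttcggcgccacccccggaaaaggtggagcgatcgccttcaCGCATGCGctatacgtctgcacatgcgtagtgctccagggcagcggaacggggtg
Ndufab1, chr7:122101799-122102098, minus strand: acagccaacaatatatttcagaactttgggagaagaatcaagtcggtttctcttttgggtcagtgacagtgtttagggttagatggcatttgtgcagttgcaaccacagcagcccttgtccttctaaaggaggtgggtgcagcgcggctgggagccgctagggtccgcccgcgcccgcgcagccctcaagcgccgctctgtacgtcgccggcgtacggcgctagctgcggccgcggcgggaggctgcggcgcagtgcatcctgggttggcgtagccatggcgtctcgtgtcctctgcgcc
Atp5o, chr16:91931581-91931880, minus strand: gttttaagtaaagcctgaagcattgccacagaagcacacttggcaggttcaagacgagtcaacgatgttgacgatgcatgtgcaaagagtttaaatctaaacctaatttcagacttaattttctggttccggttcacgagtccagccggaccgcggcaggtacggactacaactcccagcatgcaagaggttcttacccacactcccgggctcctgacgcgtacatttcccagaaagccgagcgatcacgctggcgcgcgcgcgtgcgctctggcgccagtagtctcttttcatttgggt
The NRF1 letters of Cox6a1 and Uqcr11 read as a match on both strands at adjoining positions. In Sdhb the SP1 letters occur at 3 places before the NRF1 match, and the ETS match lies after the start. A match is a description of the letters and not a binding site.

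Averaged over the 89 tested genes, fetal liver cells and KO cells at day 7 stood highest and control cells at day 7 lowest, though not in every complex. The mean deviation of these genes from their own means over all arrays was 0.29, 0.25 and 0.28 on the log2 scale in fetal liver cells. It was -0.02, 0.25 and 0.40 in KO cells at day 7, against -0.59, -0.22 and -0.11 in control cells. At day 21 it was -0.09, -0.39, 0.35 and 0.23 in KO cells, against -0.38, -0.05, -0.19 and -0.02 in control cells. The day 7 groups did not overlap, whereas KO replicate 2 at day 21 lay lowest of its day. The same mean over all tested genes stayed between -0.15 and 0.10 on every array. Control replicate 1 at day 7 is the lowest array of all for these genes. Some results that rest on it are given below with and without it, and the others include it. In bulk samples, fewer cells of a type and less RNA per cell cannot be told apart.

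**Figure D1:**
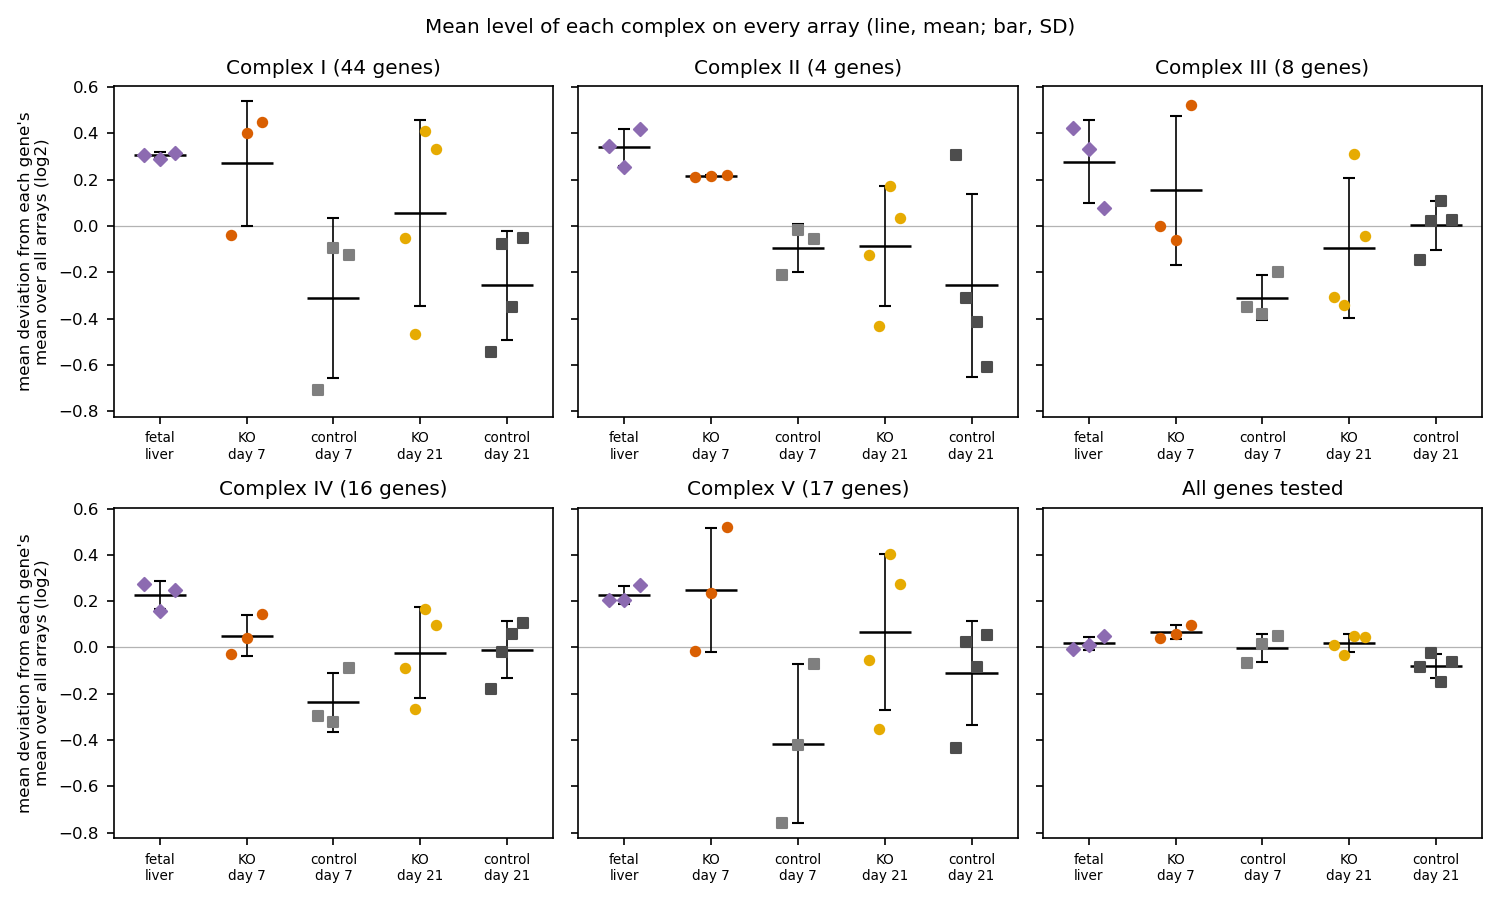
Mean deviation of each complex from its genes' own means over all arrays (log2, y axis) on each of the 17 arrays, by group (x axis), with all genes tested in the last panel; points are arrays, lines are means and bars are SDs. The day 7 control arrays average -0.31 over the 44 complex I genes and -0.42 over the 17 complex V genes, against 0.27 and 0.25 for KO cells of that day.

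By gene, control cells at day 7 had the lowest of the 5 group means for 47 of the 89 genes (52.8%) and the highest for 0. Over all 16785 tested genes that group was lowest for 20.4% and highest for 19.7%. The counts of this paragraph include control replicate 1 at day 7, with a mean deviation of -0.59, and are given only with it. Replicates 2 and 3 of that group had -0.22 and -0.11, and control cells at day 21 averaged -0.16. Fetal liver cells had the highest mean for 40 of the 89 (44.9%, against 27.7% of all genes) and KO cells at day 7 for 33 (37.1%, against 18%). Control cells at day 7 were lowest for 21 of the 44 complex I genes, 1 of 4 in complex II, 5 of 8 in complex III, 7 of 16 in complex IV and 13 of 17 in complex V. Complex II was lowest in control cells at day 21, by gene for 2 of 4 and by mean deviation, -0.26 against -0.09 in control cells at day 7. In complex IV, KO cells at day 7 were lowest for 5 of 16 genes, and control cells at day 21 were highest for 6 of 16, as many as fetal liver cells.

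**Figure D2:**
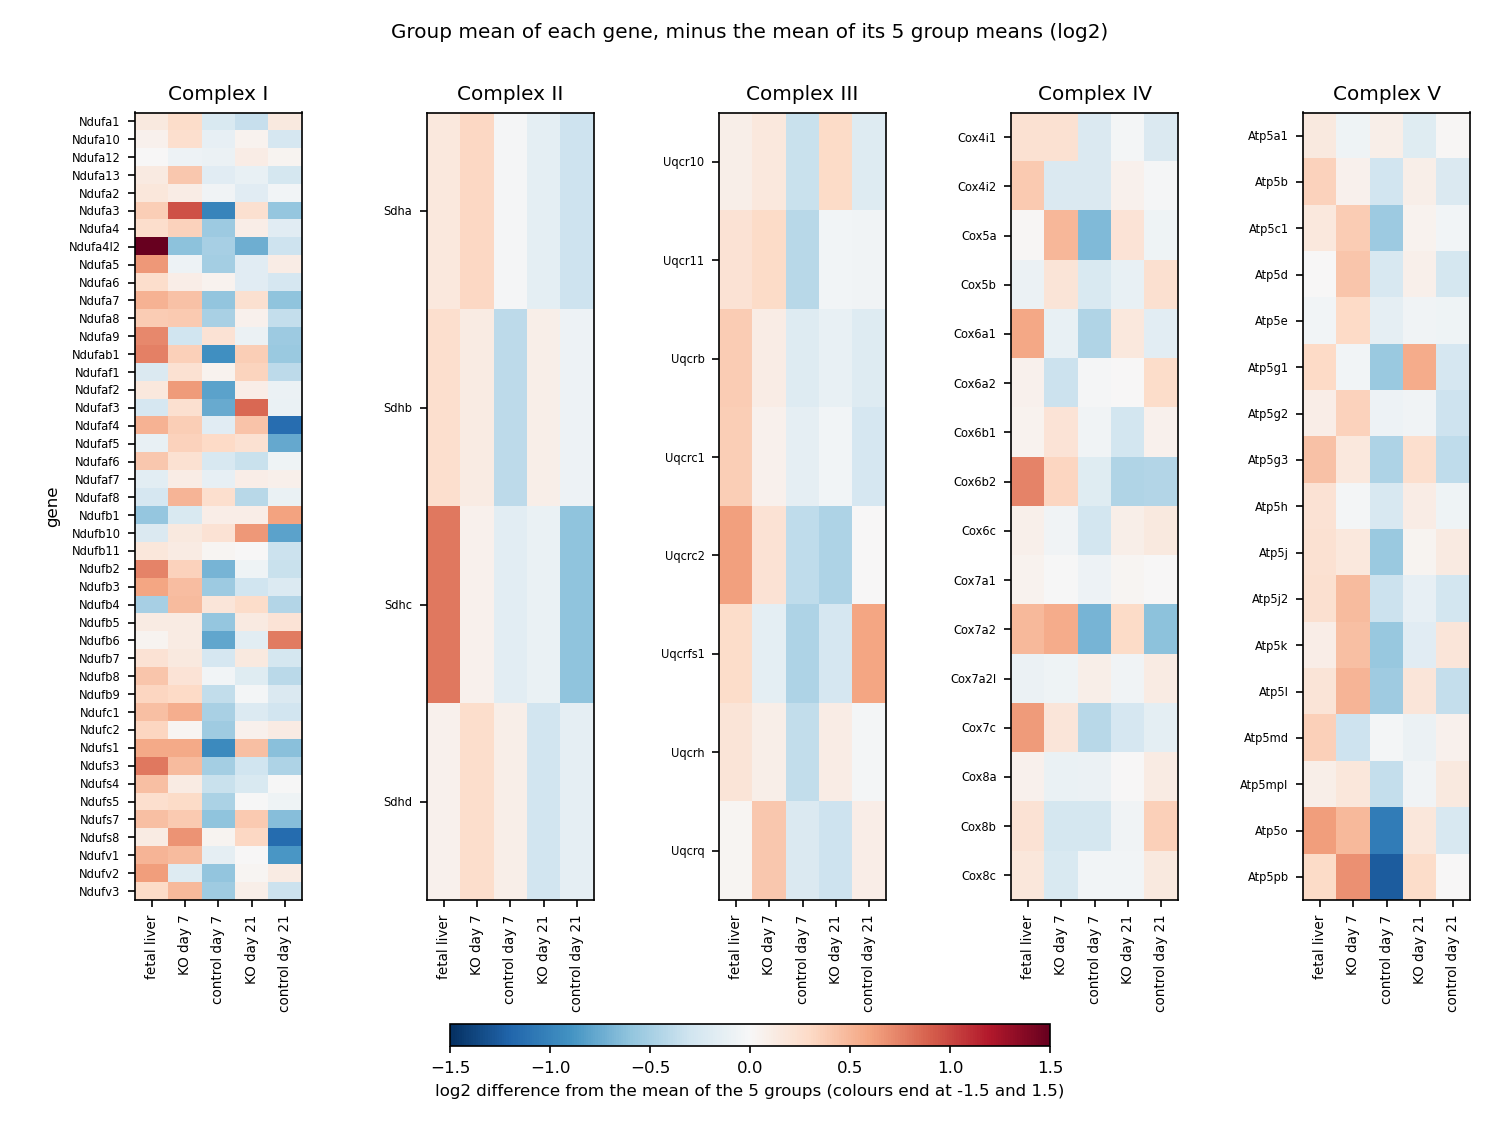
Group mean of each of the 89 tested genes minus the mean of its 5 group means (log2, colour), with genes down the page by complex and groups across. With all arrays included, control day 7 is the lowest group for 47 genes and the highest for 0, and Ndufa4l2 stands out in fetal liver.

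In KO cells at day 7, 77 of the 89 genes had a higher mean than in control cells and 12 a lower one. The median log2 difference was 0.47, with a range of -0.51 to 1.94. Over all tested genes 52.2% were higher and the median was 0.00, and over the 929 genes at or above the median level of these 89 it was 0.06. No respiratory chain gene was called at an adjusted p under 0.05, nor was any gene of the array (percent called 0%). At an unadjusted p under 0.05, 17 of the 89 were higher and 0 lower, against 3.74% and 2.98% of all genes. The 17 became 7 without KO replicate 3 and 9 without control replicate 1. The 3 KO arrays all exceeded the 3 control arrays for 31 of the 89 and all lay below them for 0. Among all genes these shares were 7.48% and 6.39%, and 14.4% were fully higher among the 929 genes. Without control replicate 1, 71 of the 89 were higher and the median was 0.37.

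By day 21 the difference was smaller, and 57 of the 89 genes were higher in KO cells, with a median of 0.15 (all genes 50.3% higher, median 0.00). No gene of the 89 was called, against 3 of all 16785 genes, all higher (0.0179%). At an unadjusted p under 0.05, 7 were higher and 1 lower, against 6.12% and 3.95% of all genes. The 7 became 1 with each array's share of values at the floor as a covariate, and 1 with the 3' to 5' ratio of control probe sets. That log2 ratio was 0.19 to 0.30 in KO cells at day 21, against -0.40 to 0.20 in control cells, and the floor share was 21.7% to 23.3% in KO cells, against 22.4% to 25.2% in control cells. KO and control arrays did not overlap for 3 genes that were higher (3.14% of all genes) and 1 that was lower (2.35%). The direction at day 21 depended on the scale of the arrays. With each array centred on its median, which moved the median of all genes to -0.16, 43 of the 89 were higher and their median was -0.01. Single arrays moved it as well, to 0.04 without KO replicate 3, 0.07 without KO replicate 4, 0.07 without control replicate 1, 0.09 without control replicate 3 and 0.29 without KO replicate 2. Leaving out arrays moved the day 21 medians of the complexes between 0.09 and 0.37 for I, 0.04 and 0.38 for II, -0.13 and 0.11 for III, -0.13 and 0.05 for IV, and 0.07 and 0.32 for V.

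The difference between the days was itself fitted. The KO effect was larger at day 21 than at day 7 for 20 of the 89 genes (12 without KO replicate 1 at day 7, and 13 with arrays centred). The median change was -0.33, and 0 genes were called, here or on the whole array (0%). Control cells at day 21 exceeded those at day 7 for 63 of the 89, with a median of 0.18 and 0 called (0.0298% of all genes in either direction). Without control replicate 1 at day 7 that median was 0.03. KO cells at day 21 exceeded KO cells at day 7 for 28 of the 89 (17 without KO replicate 1 at day 7), with a median of -0.22 and 0 called (0.0179% of all genes). These fits share groups with the KO comparisons of each day and are not independent of them.

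Fetal liver cells exceeded the mean of the adult controls for 81 of the 89 genes, with a median log2 difference of 0.46, against 52.7% and 0.02 for all genes. Here 3 of the 89 were called higher and 0 lower, against 1.88% and 1.77% of all genes. The called genes were Ndufa4l2, Ndufab1 and Atp5o. At an unadjusted p under 0.05, 20 were higher and 0 lower, against 10% and 6.77% of all genes. All fetal arrays exceeded all 7 adult control arrays for 8 of the 89 (3.37% of all genes) and lay below them for 0 (2.68%). Set against the adult KO cells of both days, fetal liver cells were higher for 62 of the 89, with a median of 0.10 and 1 called, Ndufa4l2 (1.2% of all genes called higher). The fetal arrays are shared between these comparisons.

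**Figure D3:**
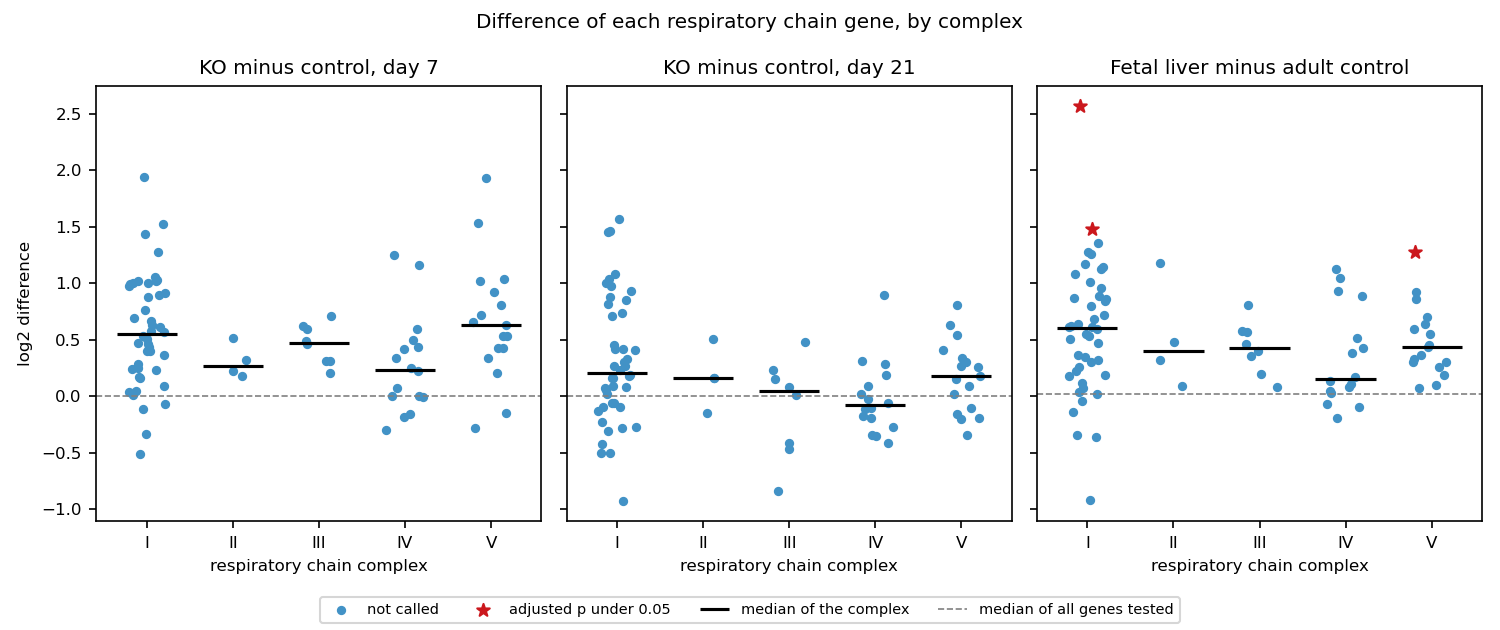
Log2 difference of each tested gene (points, y axis) by complex (x axis) for KO minus control at day 7, KO minus control at day 21 and fetal liver minus adult control; black lines are medians of a complex, dashed lines the median of all genes and red stars genes with an adjusted p under 0.05. Stars appear in the fetal panel alone, 2 in complex I as placed by symbol, of which 1 is Ndufa4l2, and 1 in complex V.

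Complex I, which takes electrons from NADH, was higher in KO cells at day 7 for 40 of 44 genes, with a median of 0.55. The mean deviation of its genes was -0.04, 0.40 and 0.45 in KO cells at day 7, against -0.71, -0.10 and -0.13 in control cells. Control replicate 1, at -0.71, thus widens the day 7 differences of this complex, which are given only with it. The genes named Ndufs and Ndufv, which include the iron-sulfur and flavin subunits beside some accessory ones, were higher for 9 of 9 (median 0.76), the Ndufa genes for 12 of 14 (0.47), Ndufb for 9 of 11 (0.40) and the Ndufaf assembly factors for 8 of 8 (0.36). KO and control arrays did not overlap for 16 of the 44, 3 of them Ndufaf factors. Of all genes 7.48% were fully higher in KO cells at day 7, and 14.4% of the 929 genes at or above the median level. At day 21, 31 of 44 were higher, with a median of 0.21. Of the 44, 39 were higher in fetal liver cells than in adult controls, with a median of 0.61. The Ndufs and Ndufv genes had a median of 0.87 there, with 9 of 9 higher, and the Ndufaf factors one of 0.15, with 5 of 8 higher.

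Ndufab1 is the mitochondrial acyl carrier protein, a complex I subunit that also serves fatty acid and lipoate synthesis. Its log2 intensities were 10.79, 10.84 and 11.16 in fetal liver cells. They were 10.11, 10.82 and 10.71 in KO cells at day 7, against 8.68, 9.36 and 9.76 in control cells, and 10.46, 10.42, 10.83 and 10.48 in KO cells at day 21, against 9.01, 10.04, 9.70 and 9.75 in control cells. KO and control arrays overlapped on neither day, and every fetal array lay above every adult control array. The difference was 1.28 at day 7 (SE 0.30, adjusted p = 0.349), 0.93 at day 21 (SE 0.26, adjusted p = 0.254) and 1.10 over both days (SE 0.20, adjusted p = 0.057). Averaged over both days, 75 of the 89 genes were higher in KO cells, with a median of 0.32, and 0 were called (0.0715% of all genes). Fetal liver cells exceeded adult controls for Ndufab1 by 1.48 (SE 0.25, adjusted p = 0.00462) and adult KO cells by 0.38 (SE 0.25, adjusted p = 0.554). A further probe set of Ndufab1 gave 1.14 at day 7, 1.14 at day 21 and 1.81 in fetal liver cells. The 3 others, whose means of 4.26 to 4.86 lie near the lowest log2 value of 4, gave -0.08, 0.00 and -0.36 at day 7. When all 5 were averaged, the fetal difference was 0.62 and not called (adjusted p = 0.177).

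Ndufa4l2, a paralogue of Ndufa4 known as a gene induced in hypoxia, was placed in complex I by its symbol alone. It set the fetal cells apart from every adult group. Its log2 intensities were 10.59, 8.60 and 8.60 in fetal liver cells. They were 6.59, 6.65 and 6.23 in KO cells at day 7, against 6.71, 6.59 and 6.5 in control cells, and 6.18, 6.47, 6.27 and 6.57 in KO cells at day 21, against 6.93, 6.54, 6.78 and 6.93 in control cells. All fetal arrays exceeded all 14 adult arrays, and fetal replicate 1 exceeded the other fetal arrays. Fetal liver cells were higher by 2.57 than adult controls (SE 0.33, adjusted p = 5.67e-04) and by 2.83 than adult KO cells (SE 0.33, adjusted p = 3.1e-04). Without fetal replicate 1 the difference from adult controls was 1.90 and still called. The KO difference was -0.11 at day 7 and -0.42 at day 21 (SE 0.34, adjusted p = 0.706). Ndufa4 itself, placed in complex I by its symbol and now known as a subunit of complex IV, had 10.84, 10.86 and 10.80 in fetal liver cells. It had 10.71, 11.16 and 10.93 in KO cells at day 7, against 9.86, 10.23 and 10.02 in control cells, without overlap. That difference was 0.90 (SE 0.24, adjusted p = 0.444).

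Of the core complex I subunits, Ndufs8 carries iron-sulfur clusters near the quinone site. At day 21 it had log2 intensities of 9.86, 10, 10.62 and 9.65 in KO cells, against 8.10, 9.09, 8.01 and 9.09 in control cells. The groups did not overlap, and the difference was 1.46 (SE 0.47, adjusted p = 0.315). Ndufs8 has 6 probe sets, and only the one with the highest mean is given here. Ndufv1, the subunit that binds NADH, had 9.59, 9.59, 10.75 and 10.51 in KO cells at day 21, against 8.58, 9.83, 8.69 and 9.82 in control cells. Its arrays overlapped, with a difference of 0.88 (SE 0.39, adjusted p = 0.481). Ndufs1, the largest iron-sulfur subunit, had 8.06, 8.40 and 8.39 in KO cells at day 7, against 5.18, 7.66 and 7.44 in control cells. Its difference of 1.52 (SE 0.77, adjusted p = 0.775) includes a control replicate 1 far below the others. The other 2 genes without overlap at day 21, singled out after their values were seen, were Ndufb10 (1.45 higher) and Ndufb6 (-0.93, SE 0.44, adjusted p = 0.509), an accessory subunit and the 1 gene fully lower in KO cells. Ndufb6 was 0.91 higher in KO cells at day 7.

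Complex II, succinate dehydrogenase, had overlapping KO and control arrays for all 4 genes on either day, and a median of 0.27 at day 7 that was 0.12 without control replicate 2. Sdha, the flavoprotein that oxidises succinate, had log2 intensities of 10.20, 10.72 and 10.45 in KO cells at day 7, against 10.17, 9.76 and 10.48 in control cells (difference 0.32, SE 0.40, adjusted p = 0.959). Sdhb, the iron-sulfur subunit, had 9.45, 8.52 and 9.36 in KO cells at day 7, against 6.78, 9.74 and 9.25 in control cells (difference 0.52, SE 0.66, adjusted p = 0.960). The Sdhb difference came to -0.39 without control replicate 1. The membrane anchors Sdhc and Sdhd differed by 0.22 (SE 0.50) and 0.18 (SE 0.40) at day 7, and by 0.51 and -0.15 at day 21. In fetal liver cells Sdhc had 11.37, 10.02 and 10.50, against 10.60, 9.43 and 9.0 in day 7 controls and 10.17, 9.73, 8.71 and 8.30 in day 21 controls. Its difference of 1.18 was not called (SE 0.42, adjusted p = 0.155), since the arrays spread widely within each group. A further Sdha probe set gave -0.55 at day 7, 1.88 at day 21 and 1.30 in fetal liver cells, so the sign for Sdha at day 7 depends on the probe set.

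Complex III, which passes electrons from ubiquinol to cytochrome c, was higher in KO cells at day 7 for 8 of 8 genes, with a median of 0.48, and for 5 of 8 at day 21, with a median of 0.04. Uqcr11, a small accessory subunit, had log2 intensities of 9.50, 9.20 and 10.11 in KO cells at day 7, against 9.09, 8.70 and 8.88 in control cells (difference 0.71, SE 0.36, adjusted p = 0.780). Uqcr10, another small subunit, had 10.53, 10.58 and 10.96 in KO cells, against 10.36, 9.83 and 10.39 in control cells (difference 0.49, SE 0.29, adjusted p = 0.838). Neither overlapped between the groups, and Uqcrh was the third gene of this kind, singled out after its values were seen. The share fully higher in KO cells at day 7 was 7.48% of all genes and 14.4% of the 929 genes. Uqcrfs1, the Rieske iron-sulfur protein, ran the other way at day 21. It had 8.70, 8.19, 8.50 and 8.26 in KO cells, against 8.47, 8.76, 10.42 and 9.35 in control cells, a difference of -0.84 (SE 0.35, adjusted p = 0.457) in which control replicate 3 lies far above the rest. In fetal liver cells 8 of 8 genes were higher than in adult controls, with a median of 0.43. The smallest p of the complex there was that of Uqcrb, with 11.74, 11.47 and 11.48 in fetal liver cells, against 10.76, 11.25 and 10.92 in day 7 controls and 11.48, 11.43, 10.30 and 10.76 in day 21 controls (difference 0.58, adjusted p = 0.211). The core protein Uqcrc1 ranged from 8.94 to 9.95 in fetal liver cells, against 8.22 to 9.30 in adult controls.

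Complex IV, cytochrome c oxidase, holds general subunits and isoforms known from other tissues. In KO cells at day 7, 10 of 16 tested genes were higher, with a median of 0.24 (0.12 without KO replicate 3). By day 21 this was 6 of 16, with a median of -0.08. The arrays did not overlap at day 7 for 5 genes, all general subunits: Cox4i1, Cox5a, Cox5b, Cox6a1 and Cox7a2. Among all genes 7.48% were fully higher in KO cells that day, and 14.4% among the 929 genes. Cox5a had log2 intensities of 11.32, 11.38 and 11.64 in KO cells at day 7, against 10.03, 9.89 and 10.96 in control cells (difference 1.16, SE 0.29, adjusted p = 0.390). Its further probe sets gave 1.00 and 0.79. Cox5a at day 21 had 11.03, 10.85, 11.55 and 11.22 in KO cells, against 10.48, 10.69, 10.89 and 11.44 in control cells, and the groups overlapped (difference 0.29, SE 0.25).

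Cox7a2, the form of subunit VIIa known outside heart and skeletal muscle, had 12.10, 11.57 and 11.59 in fetal liver cells. At day 7 it had 11.69, 11.79 and 12.01 in KO cells, against 9.91, 10.61 and 11.22 in control cells (difference 1.25, SE 0.37, adjusted p = 0.491). At day 21 it had 11.24, 11.40, 11.87 and 11.73 in KO cells, against 10.10, 11.51, 10.22 and 10.81 in control cells (difference 0.90, SE 0.32, adjusted p = 0.356). Control replicate 2 was the 1 control array that reached into the KO range at day 21. Fetal liver cells exceeded adult controls for Cox7a2 by 1.13 (SE 0.31, adjusted p = 0.0641) and adult KO cells by 0.06. The fetal difference passed the threshold under 3 of the alternatives tried.

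The other general subunits moved less. Cox6a1 had 12.43, 12.31 and 12.44 in fetal liver cells, against 11.28, 11.39 and 11.40 in day 7 controls and 10.82, 11.73, 12.46 and 11.60 in day 21 controls. Control replicate 3 at day 21 reached the fetal level, and the difference of 0.89 was not called (SE 0.27, adjusted p = 0.0876). Without that array it was 1.02 and called (adjusted p = 0.0175). Cox4i1 differed by 0.44 at day 7 (SE 0.22, adjusted p = 0.782) and by 0.43 in fetal liver cells (adjusted p = 0.262). Cox5b was 0.42 higher in KO cells at day 7 (SE 0.21, adjusted p = 0.770) and differed by -0.35 at day 21 (SE 0.18, adjusted p = 0.554), and the difference between the days, -0.77 (SE 0.27), was not called (adjusted p = 1). Cox6b1 and Cox8a differed by 0.25 and -0.01 at day 7, both with overlapping arrays.

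Isoforms known chiefly from lung, muscle or testis gave no called difference. Cox4i2, the lung form, had 5.82, 6.20 and 6.12 in KO cells at day 7, against 5.99, 6.01 and 6.15 in control cells, and fetal replicate 3 alone was high at 8.06. The muscle forms Cox6a2 and Cox8b differed by -0.30 and -0.00 at day 7, and Cox7a1 stood at the lowest value on 9 of 17 arrays. The testis forms Cox6b2 and Cox8c differed by 0.50 (SE 0.70) and -0.18 (SE 0.22). Cox7a2l differed by -0.16 at day 7 (SE 0.22) and by -0.19 in fetal liver cells (SE 0.18).

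Complex V, the ATP synthase, had the highest median of the 5 complexes in KO cells at day 7, 0.63, with 15 of 17 genes higher. Leaving out 1 array at a time moved that median between 0.42 and 0.91. The arrays did not overlap for 7 of the 17, where 7.48% of all genes and 14.4% of the 929 genes were fully higher. The 7 were Atp5o, Atp5c1, Atp5d, Atp5j2, Atp5k, Atp5mpl and Atp5pb, of which the last 5 are named because their arrays did not overlap. At day 21, 12 of 17 were higher, with a median of 0.18 and no gene without overlap. All 17 of 17 were higher in fetal liver cells than in adult controls, with a median of 0.44.

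Atp5o, the stalk protein that confers oligomycin sensitivity, had log2 intensities of 11.49, 10.86 and 11.51 in fetal liver cells. It had 11.10, 10.95 and 11.34 in KO cells at day 7, against 9.20, 9.74 and 9.86 in control cells. At day 21 it had 10.61, 10.22, 11.24 and 11.22 in KO cells, against 10.37, 10.86, 10.25 and 10.17 in control cells. The KO arrays lay more than the whole control range above the controls at day 7 and overlapped with them at day 21. The difference was 1.53 at day 7 (SE 0.30, adjusted p = 0.268) and 0.41 at day 21 (SE 0.26, adjusted p = 0.633), and the change between the days was -1.12 (SE 0.39, adjusted p = 1). Control cells at day 21 were 0.81 higher than at day 7. Fetal liver cells exceeded adult controls by 1.28 (SE 0.25, adjusted p = 0.0114), and without fetal replicate 3 the call was lost (1.16, adjusted p = 0.0581). A further probe set of Atp5o gave 0.65 at day 7 (SE 0.34) and 1.08 in fetal liver cells (SE 0.29).

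Atp5c1, the rotating gamma subunit, had 11.30, 11.87 and 11.72 in KO cells at day 7, against 10.20, 10.92 and 11.01 in control cells, without overlap. The difference was 0.92 (SE 0.22, adjusted p = 0.353). At day 21 it had 11.26, 11.27, 11.54 and 11.13 in KO cells, against 11.42, 11.19, 11.01 and 11.23 in control cells, a difference of 0.09. The change between the days was -0.83 (SE 0.29, adjusted p = 1). Atp5b, the catalytic beta subunit, had 11.71, 11.86 and 12.01 in fetal liver cells, against 11.18, 11.10 and 11.42 in day 7 controls and 11.38, 11.34, 11.50 and 10.96 in day 21 controls. All fetal arrays exceeded all adult controls, and the difference of 0.60 missed the threshold (SE 0.17, adjusted p = 0.069). Atp5g1, Atp5g2 and Atp5g3 encode the same mature ring subunit c, and differed by 0.53, 0.43 and 0.63 in KO cells at day 7, by 0.81, 0.26 and 0.63 at day 21. None of these was called (adjusted p at day 21 0.497 for Atp5g1 and 0.539 for Atp5g3).

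**Figure D4:**
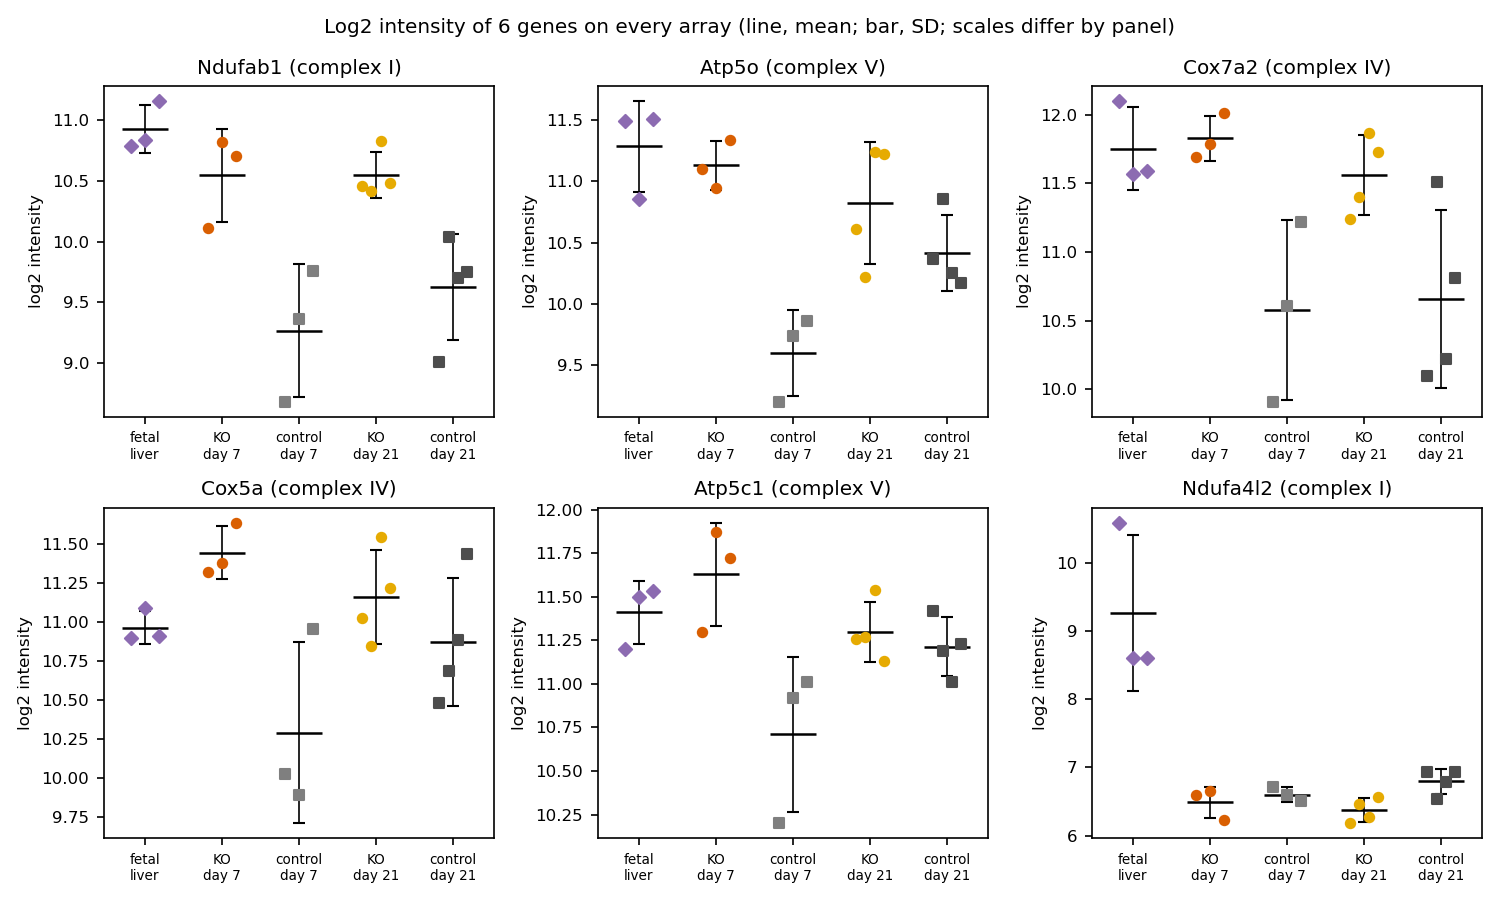
Log2 intensity (y axis) of Ndufab1, Atp5o, Cox7a2, Cox5a, Atp5c1 and Ndufa4l2 on each array by group (x axis); points are arrays, lines means and bars SDs, with a scale of its own for each gene. Control day 7 is the lowest group in the first 5 panels, and in the Ndufa4l2 panel the fetal arrays, at 8.60 to 10.59, lie above all adult arrays.

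Agreement of probe sets was checked in the 47 genes with several probe sets above the median level. In KO cells at day 7 all probe sets were higher for 36 of them, all lower for 1 and mixed for 10. At day 21 the counts were 22, 10 and 15, and in fetal liver cells 35, 3 and 9. The mean pairwise correlation of deviations from group means over the 17 arrays, given as a description of genes that share arrays, was 0.329 for complex V, 0.171 for complex I and 0.072, 0.04 and -0.10 for complexes III, IV and II. It was 0.014 for the 929 genes of similar level. By promoter letters, the median difference at day 7 was 0.52 with and 0.50 without the NRF1 letters, 0.43 and 0.53 for ETS, 0.72 and 0.50 for YY1, and 0.43 and 0.59 for SP1.

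Genes around the respiratory chain were read from further lists. Assembly factors outside the symbol rule were higher in KO cells at day 7 for 8 of 10 complex I genes (median 0.21) and 21 of 33 genes of complexes II to V (median 0.16). At day 21 these counts were 8 of 10 (0.37) and 23 of 33 (0.27). Of the 33, 18 were higher in fetal liver cells than in adult controls, and Fastkd1, a mitochondrial RNA-binding protein, fell by 1.44 (SE 0.28, adjusted p = 0.0114). The TCA cycle was higher for 13 of 16 genes at day 7 (median 0.57), 11 of 16 at day 21 (0.36) and 12 of 16 in fetal liver cells (0.44). Ogdh, a subunit of oxoglutarate dehydrogenase, had 8.69, 7.68, 8.58 and 8.34 in KO cells at day 21, against 6.62, 6.78, 6.12 and 7.29 in control cells. The groups did not overlap, and the difference was 1.62 (SE 0.29, adjusted p = 0.061). From day 7 to day 21 Ogdh changed by -1.35 in control cells (SE 0.31, not called) and by -0.03 in KO cells (SE 0.31). Electron carriers and coenzyme Q synthesis were higher for 12 of 17 genes at day 7 (0.57), 10 of 17 at day 21 (0.18) and 8 of 17 in fetal liver cells (-0.08). Cycs, the gene of cytochrome c, differed by 0.83 at day 7 (SE 0.36, adjusted p = 0.714).

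Regulators of respiratory gene transcription were higher for 12 of 18 at day 7 (median 0.21), 11 of 18 at day 21 (0.14) and 9 of 18 in fetal liver cells (0.02). Of these 3 comparisons only the fetal one held a call. Mycn, a growth-promoting transcription factor, rose by 1.47 in fetal liver cells over adult controls (SE 0.37, adjusted p = 0.0458), and differed by 0.59 from adult KO cells (SE 0.37, adjusted p = 0.53). Its relative Myc fell by 1.06 in fetal liver cells against adult KO cells (SE 0.23, adjusted p = 0.028), and differed by -0.79 from adult controls (SE 0.23, adjusted p = 0.08). Mycn had log2 intensities of 10.69, 9.67 and 9.48 in fetal liver cells. At day 7 it had 8.96, 8.99 and 10.16 in KO cells, against 7.84, 8.33 and 8.46 in control cells, without overlap (difference 1.16, SE 0.44, adjusted p = 0.651). Mitochondrial carriers and import factors were higher for 15 of 18 at day 7 (0.18), 9 of 18 at day 21 (0.06) and 17 of 18 in fetal liver cells (0.23).

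Other gene groups also differed between the groups, not all in the same order as the respiratory chain genes. The proliferation list was higher for 14 of 15 genes in KO cells at day 7 (median 1.39), 13 of 15 at day 21 (0.59) and 15 of 15 in fetal liver cells (1.53, 6 called). Its mean log2 level per array was 9.50 to 9.75 in fetal liver cells, 9.19 to 9.52 in KO cells at day 7, against 7.55 to 8.32 in control cells, and 8.63 to 9.39 in KO cells at day 21, against 7.88 to 8.46 in control cells. Erythroid markers were higher for 7 of 8 in KO cells on either day (medians 1.57 and 1.32) and 8 of 8 in fetal liver cells (2.18, 5 called), with summed intensities of 1289 to 6407 in KO cells at day 7, against 558.8 to 1632 in control cells. For the called counts of both lists, the shares of all genes called in fetal liver cells against adult controls were 1.88% higher and 1.77% lower. The mean erythroid log2 level was 7.61 in KO cells at day 21 and 7.42 in KO cells at day 7. Megakaryocyte markers were higher for 8 of 8 at day 7 (0.70), 7 of 8 at day 21 (1.52) and 4 of 8 in fetal liver cells (-0.21). Their mean level was 6.13 in fetal liver cells. It was 7.21 in KO cells at day 7, against 6.15 in control cells, and 8.03 in KO cells at day 21, against 6.65 in control cells. Fetal liver cells and control cells at day 7 were thus the lowest groups, at about the same level. The part of these groups in the differences of the respiratory chain genes was not tested.

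Fetal liver arrays also held more signal of markers of other cell types. Whether it came from other cells or from the sorted cells was not tested. Of all genes, 1.88% were called higher in fetal liver cells than in adult controls, and 1.77% lower. Endothelial markers were higher there for 8 of 8 genes (median 2.80, 5 called), hepatocyte markers for 7 of 7 (2.32, 3 called), macrophage markers for 7 of 8 (1.51, 3 called) and neutrophil markers for 8 of 9 (1.96, 2 called). Their summed intensities were 2602 to 14370 for endothelial and 795.2 to 11130 for hepatocyte markers in fetal liver cells, against 1250 to 2838 and 375.6 to 1130 in adult controls. By fetal array, the mean endothelial level was 7.19, 9.46 and 10.47, and Ndufa4l2 had 10.59, 8.60 and 8.60. The mean neutrophil level by fetal array was 10.75, 8.97 and 8.30. For hepatocyte markers it was 6.47, 9.88 and 9.20, and for macrophage markers 6.67, 6.19 and 6.71. The relation of these levels to Ndufa4l2 was not tested. Adgre1, which defines macrophages, stood at the lowest value in every adult group. In KO cells at day 7 macrophage markers were higher for 4 of 8 (-0.01), and neutrophil markers were higher for 2 of 9 (-0.71). Markers of the sorted stem cells were higher for 3 of 7 at day 7 (-0.17), 1 of 7 at day 21 (-0.18) and 2 of 7 in fetal liver cells (-0.26), with 0 called in each. The part of other cells in the fetal differences was not tested.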

How the data were processed

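The values are linear intensity, deposited by the authors with a lowest value of 16. RMA is the tool that the submitters' processing notes name, and no source used here gives the scaling of the arrays. Per the labels, RNA was amplified with the Ovation Pico WTA system and biotinylated. Of 45101 probe sets, 34958 name a single gene in GEO's platform annotation, 932 several and 9160, other than controls, none. No 2 arrays were identical, and their correlations were 0.809 to 0.952. Log2 intensity was fitted by limma (version 3.58.1, R 4.3.3) through lmFit and eBayes (1 mean per group over all 17 arrays, 12 residual degrees of freedom), and p-values were adjusted by Benjamini-Hochberg over the 16785 genes above the lowest value on at least 1 array. The fit was tested on simulated data. Adult control and adult KO stand for the mean of day 7 and day 21. Described genes are those called, the 2 with the smallest p per complex in each main comparison, core subunits, complex II and isoform sets, and for other lists the 2 smallest p and called genes. The genes and lists were chosen with earlier results of these data known, so the lists have counts and medians without tests. Levels are compared within a probe set only. Of the 90 genes, 20 were read from a probe set with the suffix x or s, among them Ndufs8, Ndufv1, Cox5b and Sdhc. Alternatives changed the scale, filter, probe set, covariates, block and arrays used. Promoters are RefSeq's. Python 3.11.15, numpy 2.4.6, pandas 2.3.3 and matplotlib 3.10.9 were used for counts and plots. The number of arrays limits precision.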

Additional observations from a re-analysis of the deposited data

Results flagged for a closer look

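Among 82 groups of 4 arrays examined for the described genes and the complex means, 6 held an array far from its neighbours, where chance gives about 1 in 20. Ndufab1 was 10.83 in KO replicate 3 at day 21, against 10.42 to 10.48 in the other KO arrays of that day. Ndufa4 was 10.32 in KO replicate 1 at day 21, against 10.77 to 10.81 in the others. Cox8c was 6.87 in KO replicate 2 at day 21, against 6.14 to 6.17. In control cells at day 21, Uqcr10 was 9.53 in replicate 1, against 10.60 to 10.61 in the others, Uqcrc1 was 8.22 in replicate 3, against 9.06 to 9.23, and Cox8b was 7.81 in replicate 4, against 5.84 to 6.04. All values are log2 intensities.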

How the results depend on the processing

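Each of 73 results was recomputed under 13 other settings and with each of the 17 arrays left out, and 2161 of 2190 values kept their direction and side of the threshold or moved little. A value near 0 that moved little can have changed sign. The direction at day 21, as described above, depended on the scale of the arrays. At day 7, 70 to 80 of up to 89 tested genes were higher in KO cells in every run, with medians of 0.36 to 0.58. In fetal liver cells the median was 0.35 to 0.53, and 2 to 4 genes were called. Leaving out arrays gave 0 to 1 called genes at day 21, the 1 being, without control replicate 4, Ndufaf3 (2.23, limma adjusted p = 0.0462), whose control arrays had been 5.41, 6.31, 5.35 and 10.71. The count of genes with a larger KO effect at day 21 than at day 7 was 13 with arrays centred and 12 without KO replicate 1 at day 7, and 12 to 27 over all left-out arrays. Over these, 17 to 36 genes were higher in KO cells at day 21 than at day 7, the lowest without KO replicate 1 at day 7. With each array's share of values at the floor as a covariate, 9 genes at day 7 and 1 at day 21 were higher at an unadjusted p under 0.05, and 1 at day 21 with the 3' to 5' ratio as a covariate. The cause was not tested. Leaving out arrays gave 7 to 18 at day 7 (7 without KO replicate 3, 9 without control replicate 1) and 5 to 12 at day 21.

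Sdha at day 7 was -0.20 with the mean of its probe sets and -0.55 with the set of highest mean intensity, and at day 21 -0.06 without control replicate 3. Sdhb at day 7 was -0.03 with the floor share as a covariate and -0.39 to 1.10 over left-out arrays, the lowest without control replicate 1 at day 7. In fetal liver cells Atp5b was called with the mean of probe sets (0.60, adjusted p = 0.0493), and Cox7a2 with arrays centred (1.14, adjusted p = 0.0403), without control replicate 3 at day 7 (1.29) and without control replicate 2 at day 21 (1.28). The median of complex IV was 0.09 at day 7 with the mean of probe sets and -0.24 at day 21 with arrays centred, that of complex III 0.27 at day 21 with the mean of probe sets, and that of complex II 0.83 in fetal liver cells with the set of highest mean intensity. With every probe set tested singly in limma, the further set of Ndufab1 was called in fetal liver cells (1.81, adjusted p = 0.0376) and that of Atp5o was not (1.08, adjusted p = 0.0645). The choices of probe set by suffix, by highest mean intensity and singly were added after seeing the data.

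At day 7, same-numbered KO and control arrays deviated together by correlations of 0.0295 to 0.0784, against -0.0856 to 0.0322 for different numbers. At day 21 the correlations were -0.025 to 0.0214 for the same number and -0.0569 to 0.0496 for different numbers. Correlations this small cannot settle whether the numbers pair the samples. A replicate block left 72 of 73 results as they were and gave 1 called gene for the mean KO effect of both days, Ndufab1 (adjusted p = 0.0426).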
